A study of Rattus norvegicus with 46 samples.

Results

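The early injury response of the subacromial bursa was set against that of the supraspinatus tendon beside it. The libraries were chosen by their labels alone, and they are 22 of the 46 rat libraries of the study. They comprise 5 bursae and 5 supraspinatus tendons from rats without an operation (labelled control), and 6 bursae and 6 tendons taken 3 days after the supraspinatus tendon was cut (tenotomy) with the bursa left in its place. The study asked what the bursa contributes when the rotator cuff is injured, and its remaining libraries hold tendons whose bursa had been taken out and tissue from day 14. RNA was taken from whole dissected tissue, poly-A selected and sequenced in bulk. Strain, sex and age are not given in the labels used here. The labels say that both tissues were dissected from each rat but not which libraries share one, nor that the libraries of a group came from separate rats, so the p-values measure the spread between these samples.

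The subacromial bursa is a thin, lubricating sac with a synovial lining and fatty, vascular connective tissue that lies over the rotator cuff. A cut tendon is first entered by blood cells, neutrophils and monocytes, and its fibroblasts then divide and lay down a provisional collagen matrix. For each gene the day 3 change in the bursa and the day 3 change in the tendon were fitted together, and the difference between these changes, called the interaction below, was tested. A positive interaction means that the gene rose more, or fell less, in the bursa than in the tendon. Levels are given in CPM (counts scaled to a common library total, with TMM factors), and changes are given as log2 values with a standard error. The standard error was taken as the absolute change divided by the square root of the F statistic of its test.

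Gene names were not paired with the transcripts that were counted, and were assigned by matching values to the authors' deposited gene means, so that named genes held 91.0% of counts. Totals ran from 12425823 to 20394839 counts per library. Tendon transcripts marked the tendon libraries, where *Tnmd* had 161, 256, 225, 249 and 439.6 CPM in the controls against 7.66, 1.69, 13.2, 44.8 and 15.0 in control bursae. The bursa libraries carried fat: 10 white adipocyte genes summed to 14459.5 to 36774 CPM in control bursae and 829 to 1428 CPM in control tendons. Muscle transcripts were abundant in control tendons, where 9 skeletal muscle genes summed to 39206 to 63505 CPM, against 2310.3 to 7382 in day 3 tendons, 522 to 20508 in control bursae and 4.34 to 7984 in day 3 bursae. Control bursae 1 and 2 stood apart, with 48.9% and 53.5% of their counts on mitochondrially encoded genes against 13.3% to 17.0% in the other 3. Brown adipocyte genes summed to 49.5 to 5768 CPM (median 78.3) in control bursae. Of 7 tested, 5 fell in the bursa at day 3, while 2 rose and none fell without control bursae 1 and 2. Control bursa 4 was the highest of the 5 in *Tnmd* and in the cartilage collagen *Col2a1*, at 1138 CPM against at most 0.199 in the others. Results that changed without these libraries are given with and without them.

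Among features called in both tissues, 5516 moved in the same direction and 250 in opposite ones, and where the responses differed the levels of the tissues were mostly closer at day 3 than in controls. The interaction passed the test for 2734 of 16496 features (16.6%; edgeR quasi-likelihood test, adjusted p under 0.05), 1582 higher in the bursa response (9.59%) and 1152 lower (6.98%). In the bursa alone 3743 features rose (22.7%) and 3830 fell (23.2%), so 45.9% were called. In the tendon 4399 rose (26.7%) and 5202 fell (31.5%), so 58.2% were called. Of the higher interactions, 793 had a fall called in the tendon only, 381 had a fall in both tissues and 230 had a rise in the bursa only. Of the lower ones, 431 had a rise called in the tendon only, 294 rose in both and 244 fell in the bursa only. Of the features with opposite calls, 117 rose in the bursa and fell in the tendon, and 133 did the reverse. The balance of higher and lower interactions depended on scaling, since 57.9% of calls were higher with the main scaling, 45.7% with DESeq2 size factors and 43.3% when mitochondrial and muscle genes were left out of the scaling. With all 46 libraries in 1 fit 4138 features were called, and 41.1% of these were higher. With tendons whose bursa had been removed in place of the intact ones, 27.6% of 2209 calls were higher. Left out together, control bursae 1 and 2 changed the count to 4883, with 2781 higher and 2102 lower.

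**Figure D1:**
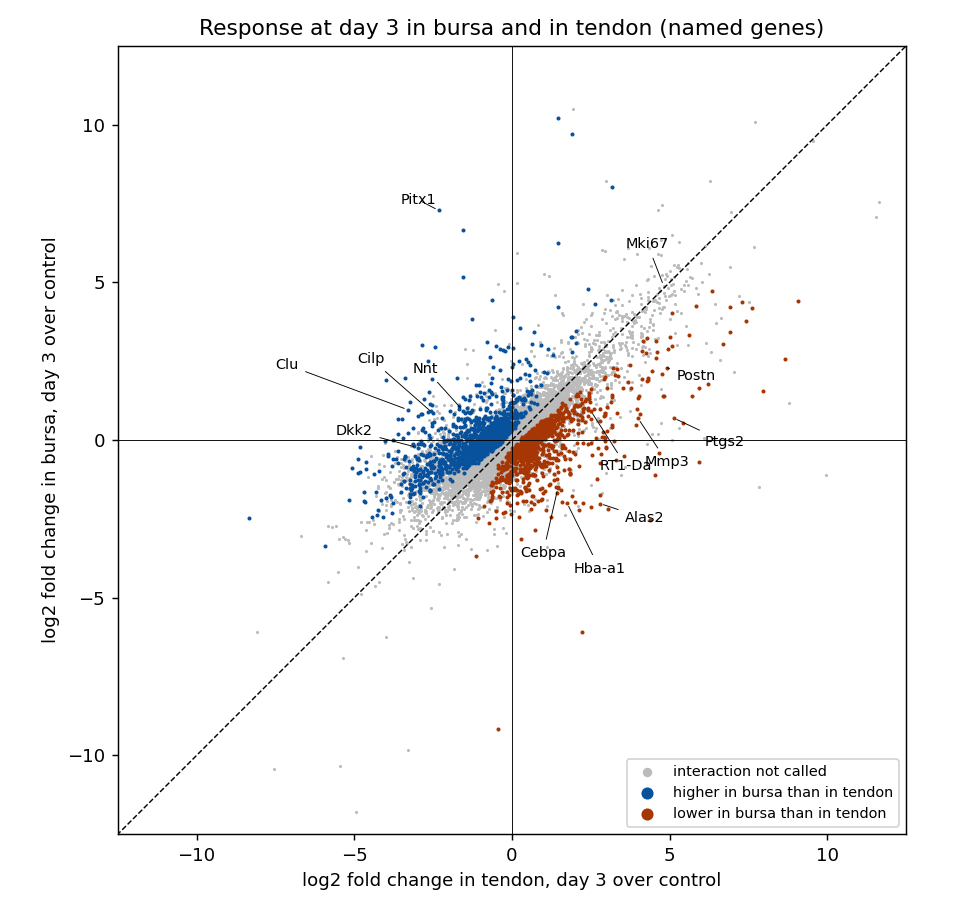
Each point is a feature with a gene name, placed by its log2 change at day 3 in the tendon (horizontal) and in the bursa (vertical), with the line of equal change dashed. *Mki67* lies near the line, at 4.89 in the bursa and 4.82 in the tendon, called interactions lie above it (blue, 1 of them *Clu*) or under it (red-brown), and *Alas2*, *Hba-a1* and *Cebpa* lie where the bursa fell and the tendon rose.

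The gap between the tissues, bursa over tendon, was called for 7612 features in controls (46.1%, with 22.4% higher in the bursa and 23.7% lower) and 4643 at day 3 (28.1%). Its median size was 0.49 in controls and 0.31 at day 3 on the log2 scale, and its 90th percentile was 2.12 and 1.24. Among the 2734 features with a called interaction the gap was smaller at day 3 for 2300 (84.1%), against 10926 of all 16496 (66.2%). A gap called in controls and not at day 3 was found for 1021 of the 1582 higher and 649 of the 1152 lower interactions. The count of called gaps was not smaller at day 3 in every fit: limma voom with group weights called 6454 in controls and 6672 at day 3. With the muscle level as a covariate the counts were 5450 and 4013.

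**Figure D2:**
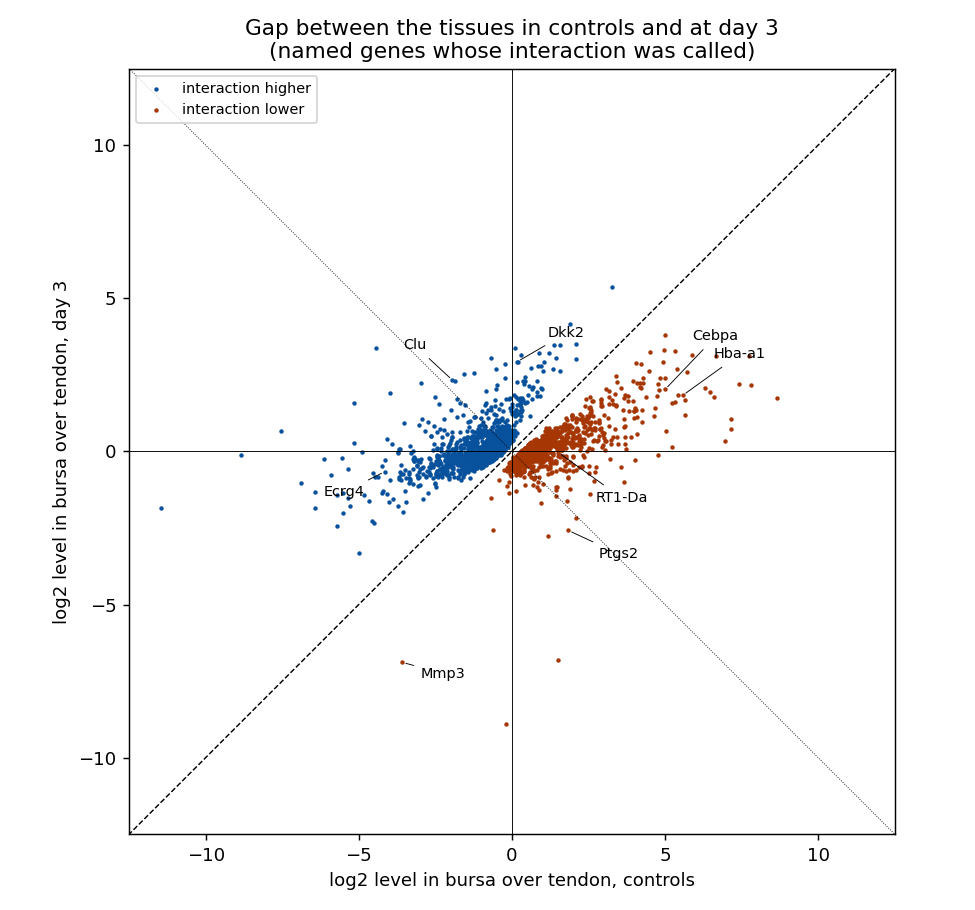
Each point is a feature with a gene name and a called interaction, placed by its log2 bursa-over-tendon level in controls (horizontal) and at day 3 (vertical), with equal gaps on the dashed line and equal gaps of opposite sign on the dotted line. Most points lie nearer to 0 at day 3 than in controls, as *RT1-Da* does at 1.52 and -0.04, while *Mmp3* (-3.58 and -6.89) and *Dkk2* (0.17 and 2.93) lie farther from 0.

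Cell division, collagen and general macrophage genes rose in both tissues with few called interactions. Of 16 cell division genes tested, 15 rose in the bursa, with a median of 4.48 (22.7% of all features rose there and 23.2% fell), and 16 in the tendon, where 26.7% of all features rose (median 4.68). The interaction was called for 2, both lower, against 6.98% of all features. The proliferation marker *Mki67* had 1.52, 2.32, 4.84, 5.94 and 4.63 CPM in control bursae and 63.9 to 159 (median 116) at day 3, and 7.42, 6.11, 5.78, 5.36 and 5.11 in control tendons and 144 to 202 (median 162) at day 3. In each tissue the day 3 libraries lay above the controls, and the interaction was 0.07 ± 0.35 (adjusted p = 0.925). The 2 called members were *Mcm5* (interaction -1.01 ± 0.29, adjusted p = 0.0222, lost without control bursa 3, with limma voom at 0.211 and with the replicate number as a block at 0.0677), a subunit of the replicative helicase, and *Tyms*, which makes thymidylate for DNA. *Tyms* rose in the tendon, from 3.21, 3.55, 4.94, 3.96 and 4.09 to 10.9 to 16.2 (median 13.1) CPM, and its change was 0.15 ± 0.15 in the bursa (adjusted p = 0.429), where the controls, at 10.9, 16.2, 11.5, 11.3 and 11.4 CPM, overlapped the day 3 libraries, at 10.6 to 18.3 (median 13.3).

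Of 15 collagen and scar matrix genes, 14 rose in each tissue (medians 2.65 in the bursa and 2.86 in the tendon). The list's median log2 change was over 0 in both, and over all features it was -0.05 in the bursa and -0.08 in the tendon. *Col3a1*, the collagen of early scar, rose by 2.69 ± 0.46 in the bursa and 2.86 ± 0.47 in the tendon, with an interaction of -0.16 ± 0.60 (adjusted p = 0.892). Without control bursae 1 and 2 the *Col3a1* interaction was -0.82 and was called (adjusted p = 0.00662). *Col1a1*, the main tendon collagen chain, had 259.7, 156, 1748, 2875 and 1963 CPM in control bursae and 13612 to 25855 (median 16654) at day 3, and its interaction was 1.43 ± 0.75 (adjusted p = 0.206). With control bursae 1 and 2 left out, which held the 2 lowest *Col1a1* values, 5 of the 15 genes had a called interaction, all lower, with a list median of -0.37. Without control bursa 4, 2 were higher and 1 lower, with a median of 0.58. Of 13 monocyte and macrophage genes, 11 rose in the bursa and 10 in the tendon (medians 2.01 and 2.12), against 22.7% and 26.7% of all features. No interaction was called in the main fit (none of 13 at an unadjusted p under 0.05, by DESeq2 or by limma voom). However, 3 were called, all lower, without control bursae 1 and 2, when 9 rose in the bursa and 12 in the tendon. In the fit of all 46 libraries 2 were called, both lower. In bulk tissue a change in the number of cells of a type and a change in RNA per cell cannot be told apart.

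*Soat1*, *Ifi30*, *Gnpda1* and *Sat1* rose in both tissues, and the 95% interval of their interaction, taken with a normal quantile, stayed within 0.5 log2 units of 0. An interval with a t quantile would be wider and was not computed. *Soat1*, which esterifies cholesterol for storage, rose by 2.27 ± 0.13 in the bursa and 2.42 ± 0.13 in the tendon, and its interaction of -0.15 ± 0.17 had a 95% interval from -0.49 to 0.19. *Ifi30*, a lysosomal thiol reductase of antigen processing, had an interaction of -0.04 ± 0.19 with an interval from -0.41 to 0.34. For *Sat1*, which acetylates polyamines, the changes were 1.68 and 1.69, and for *Gnpda1*, a hexosamine enzyme, 1.95 and 1.79. By the same normal interval this held for 1105 of the 5516 features called with the same sign in both tissues, a count that a wider interval could lower.

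**Figure D3:**
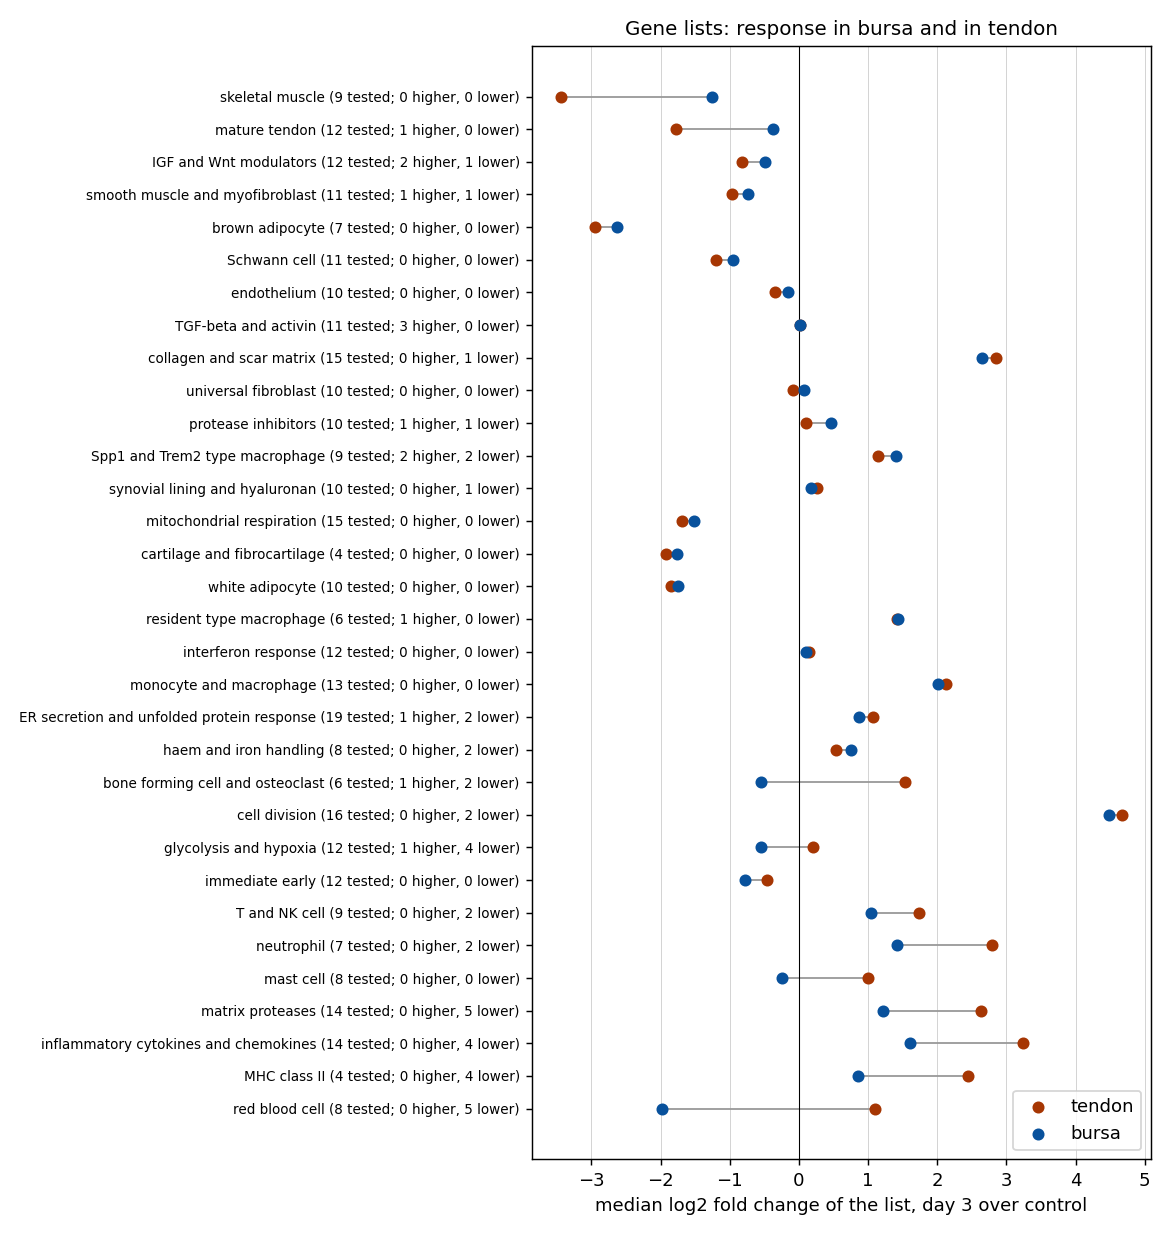
For each gene list the median log2 change at day 3 is plotted for the bursa (blue) and the tendon (brown), ordered by the median interaction, with the counts of tested members and called interactions in brackets. The red blood cell genes, with medians of -1.98 and 1.10, lie on opposite sides of 0, while the cell division genes lie together at 4.48 and 4.68.

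MHC class II genes were higher in bursa than in tendon before injury, and at day 3 no difference between the tissues passed the test. Class II molecules display peptides to helper T cells and are made by dendritic cells, macrophages and B cells. All 4 class II genes that could be tested, of 8 listed, had a lower interaction (median -1.53, against 0.04 over all features), and all 4 kept the call in each of 32 alternative fits. *RT1-Da*, the rat DR alpha chain, had 91.7, 103, 233, 199 and 257 CPM in control bursae and 63.0, 51.7, 114, 40.4 and 38.9 in control tendons. At day 3 it reached 283 to 485 (median 313) in bursae and 288 to 525 (median 308) in tendons. The day 3 groups lay above their controls in both tissues and on top of each other, and the gap between tissues went from 1.52 ± 0.31 (adjusted p = 4.78e-04) to -0.04 ± 0.28 (adjusted p = 0.933). The interaction was -1.56 ± 0.41 (adjusted p = 0.0136).

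*RT1-Ba*, an alpha chain of the other classical class II molecule, moved with it: 83.2, 74.1, 171, 153 and 212 CPM in control bursae, 192 to 319 (median 222) at day 3, 46.4, 31.0, 76.4, 29.7 and 19.2 in control tendons and 167 to 288 (median 211) at day 3. Its interaction was -1.65 ± 0.42 (adjusted p = 0.0103). *Cd74*, the invariant chain that escorts class II molecules, had an interaction of -1.499 ± 0.44 (adjusted p = 0.0222), and *RT1-DMa*, a chain of the peptide exchanger DM, -1.17 ± 0.28 (adjusted p = 0.00771). In all 4 the tendon rise was called (from 2.23 for *Cd74* to 2.50 for *RT1-Da*), and in the bursa the smaller rise was called for 3, the exception being *Cd74* at 0.73 ± 0.31 (adjusted p = 0.0598). The lowest bursa control values of *RT1-Da*, *RT1-Ba* and *Cd74* were those of control bursae 1 and 2, and leaving both out kept all 4 interaction calls. The bursa rise was then called for 1 of the 4 genes, with 0.56 (adjusted p = 0.133) for *RT1-Da* and 0.40 (adjusted p = 0.3) for *RT1-Ba*, whose bursa rise was kept in 16 of 22 fits that left out 1 library. The tendon rise was called for all 4.

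The upstream sequences of 3 of these genes are shown because class II genes are known to share an X box and a Y box before their start site. They are the 100 bases that end at the base before the RefSeq start on GRCr8, and the capitals mark GCAAC (a part of the X box) and ATTGG (the Y box) on the strand of the gene.
RT1-Ba: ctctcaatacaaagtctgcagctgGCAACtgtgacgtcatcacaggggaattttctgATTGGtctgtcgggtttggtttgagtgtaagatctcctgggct
RT1-Da: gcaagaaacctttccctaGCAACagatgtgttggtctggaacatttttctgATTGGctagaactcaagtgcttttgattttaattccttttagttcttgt
RT1-DMa: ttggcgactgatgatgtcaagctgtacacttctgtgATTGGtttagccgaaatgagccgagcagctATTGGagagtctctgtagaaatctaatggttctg
They lie at chr20:4576957-4577056 (plus strand), chr20:4515315-4515414 (plus strand) and chr20:4712336-4712435 (minus strand). GCAAC followed after 12 to 28 bases by ATTGG stood in the sequences of *RT1-Ba* and *RT1-Da*, and in 0.565% of the 33469 promoters when the 250 upstream bases were searched on both strands. ATTGG alone, which *RT1-DMa* holds at 2 places, was found on either strand in 34.0% of promoters. Of 8 class II list genes 6 have an entry, 3 of them held the spaced pair (*RT1-Db1* is the third) and all 6 held ATTGG. The genes, the lengths shown and the spacing were chosen after the sequences had been searched, so the matches are a description only.

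Cyclo-oxygenase and interleukin-1 transcripts rose by a larger factor in the tendon than in the bursa. Of 14 inflammatory cytokine and chemokine genes tested, 13 rose in the tendon (median 3.24) and 9 in the bursa (median 1.61), against 26.7% and 22.7% of all features. The interaction was called for 4, all lower (against 6.98% of all features). Limma voom with group weights called 5 rises in the bursa and 12 in the tendon. All 14 interactions were below 0, between -4.43 and -0.34. *Ptgs2*, the inducible cyclo-oxygenase that starts prostaglandin synthesis, had 1.45, 0.997, 1.52, 0.879 and 0.227 CPM in control tendons and 17.6 to 72.8 (median 33.0) at day 3, with every injured tendon above every control. In bursae it had 1.09, 1.07, 2.35, 7.48 and 6.34 in controls and 1.78 to 17.3 (median 4.97) at day 3, and these groups overlapped. The tendon rise was 5.13 ± 0.72 (adjusted p = 5.11e-06) and the interaction -4.43 ± 0.89 (adjusted p = 0.00211), which limma voom with group weights did not call (adjusted p = 0.0523).

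*Il1b*, a macrophage-derived inflammatory cytokine, rose in both tissues, from a lower start in the tendon, and the day 3 groups overlapped. Its CPM were 0.589, 0.624, 0.752, 1.19 and 1.95 in control bursae and 2.68 to 5.75 (median 3.44) at day 3, and 0.230, 0.125, 0, 0.264 and 0.114 in control tendons and 2.27 to 4.32 (median 2.67) at day 3. The interaction was -2.44 ± 0.57 (adjusted p = 0.00575), and its size rests on control tendons of at most 0.264 CPM. *Lif*, an interleukin-6 family cytokine, rose in the tendon by 1.39 ± 0.36 and not in the bursa (-0.33 ± 0.34, adjusted p = 0.451), with an interaction of -1.72 ± 0.50 (adjusted p = 0.0212). *Cxcl1*, a neutrophil attractant, had group medians of at most 0.505 CPM, fell in the bursa (-1.67 ± 0.45) and rose in the tendon (1.43 ± 0.49), and its interaction was -3.10 ± 0.67 (adjusted p = 0.0033); limma voom did not call the tendon rise (adjusted p = 0.0529), which was also lost without control tendon 2, in the fit of all 46 libraries and with the muscle covariate. For *Il6*, which had 3 counts over all control tendons, day 3 levels were 1.33 to 2.78 (median 2.04) in bursae and 1.599 to 8.53 (median 4.77) in tendons, and the interaction did not pass (adjusted p = 0.223). That of *Ccl2*, the monocyte attractant, did not pass either (-1.32 ± 0.76, adjusted p = 0.259). Leaving out control bursae 1 and 2, 6 of the 14 genes were called, and 7 rose and 2 fell in the bursa.

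Neutrophil genes rose in both tissues. Of 7 tested, 5 rose in the bursa (3 with limma voom) and 6 in the tendon, against 22.7% and 26.7% of all features. A lower interaction was found for 2 of 7, against 6.98% of all features. *Csf3r*, the receptor of the growth factor that drives neutrophil production, had 1.26, 1.25, 1.27, 2.37 and 2.55 CPM in control bursae and 14.5 to 20.2 (median 16.8) at day 3. In tendons it had 0.612, 0.311, 0.532, 0.703 and 0.908 and 13.1 to 26.7 (median 17.6), so the groups at day 3 overlapped, and the interaction was -1.75 ± 0.38 (adjusted p = 0.00331). *Fcnb*, outside that list, a ficolin of the neutrophil and monocyte lineages, rose by 3.78 ± 0.59 in the bursa and 7.41 ± 0.79 in the tendon (interaction -3.64 ± 1.03, adjusted p = 0.0197), a call lost with limma voom (adjusted p = 0.486) and in the fit of all 46 libraries (adjusted p = 0.0561). The other called neutrophil gene, *S100a8*, had 1 count in all control tendons together, so no fold is given. Its level at day 3 was 0.780 to 1.08 (median 0.878) CPM in bursae and 0.198 to 1.65 (median 0.464) in tendons. The interactions of *Csf3r* and *S100a8* were not called by limma voom with group weights (adjusted p = 0.148 and 0.13), nor that of *S100a8* with the replicate block (0.0603). The bursa rise of *S100a8* was lost with limma voom and without control bursae 1 and 2.

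Of 9 T and NK cell genes, 5 rose in the bursa and 7 in the tendon, against 22.7% and 26.7% of all features. Of the 9 interactions 2 were lower, against 6.98% of all features. *Cd2*, a T cell adhesion receptor, had 0.689, 0.374, 1.22, 0.264 and 0.227 CPM in control tendons and 2.94 to 7.64 (median 3.72) at day 3, all above the controls, against 0.421, 1.07, 1.32, 0.723 and 1.36 and 1.24 to 2.49 (median 2.16) in bursae. Its interaction was -1.98 ± 0.54 (adjusted p = 0.0162). The second was *Cd8b*, a chain of the cytotoxic T cell co-receptor, which had 1 count over the control tendons and 2.56 to 5.66 (median 2.97) CPM at day 3, against 4.60 to 8.93 (median 6.10) in day 3 bursae. Limma voom with group weights called neither (adjusted p = 0.0866 and 0.357), and without control tendon 1, which held that count, the *Cd8b* interaction was -4.60, while 4 of the 9 genes were called without control tendon 3 and in the fit of all 46 libraries.

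**Figure D4:**
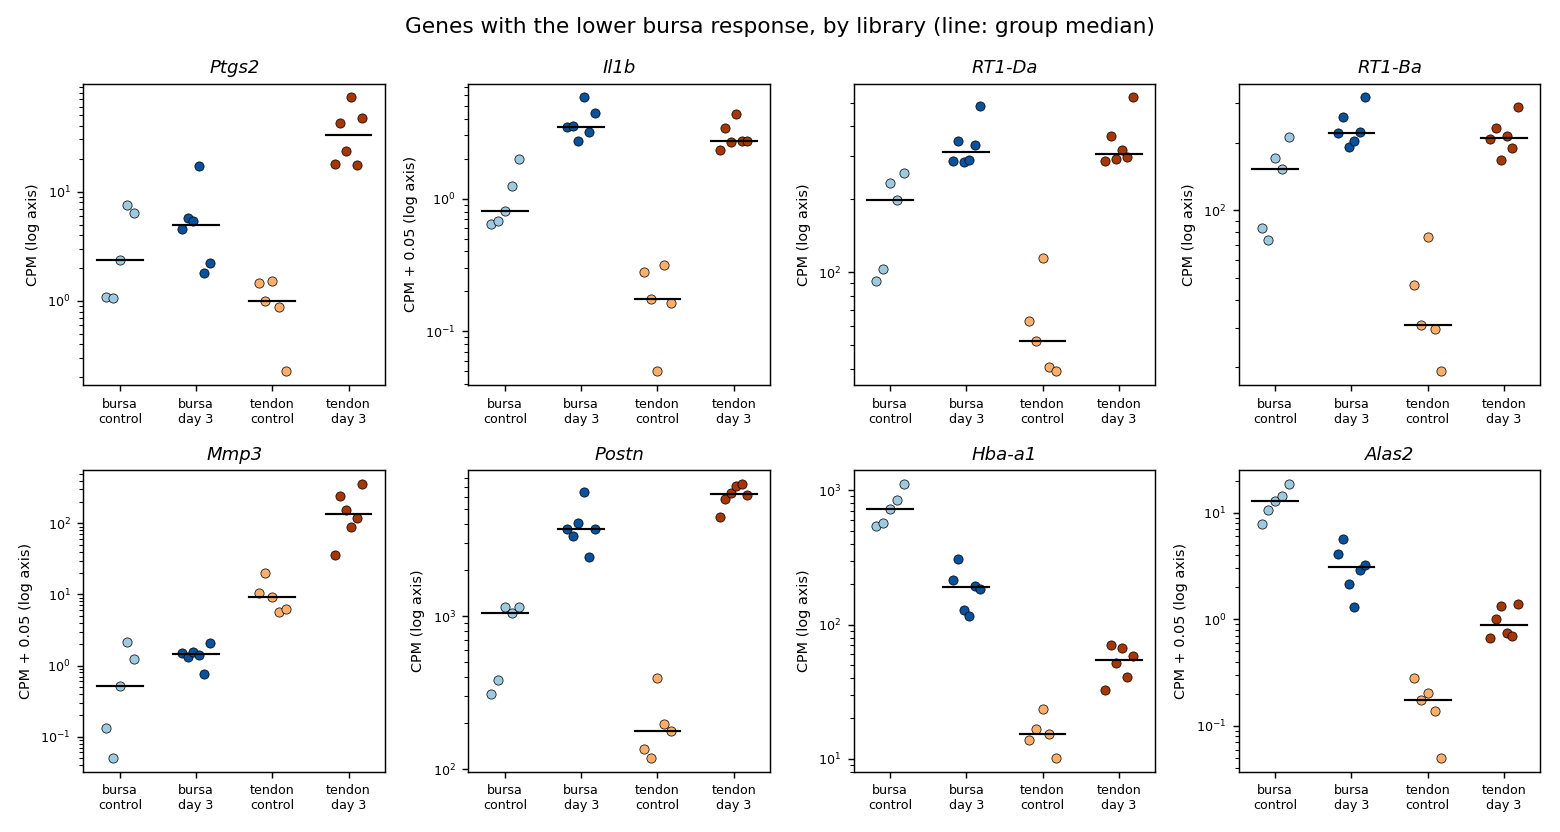
CPM of 8 genes with a lower interaction is plotted on log axes for each of the 22 libraries in the 4 groups, with 0.05 added to each value of a gene that is at 0 in some library, and the line at the group median. *RT1-Da*, *RT1-Ba* and *Il1b* start lower in tendon and overlap the bursa at day 3, *Ptgs2* and *Mmp3* have a called rise in the tendon alone, and *Hba-a1* and *Alas2* fall in the bursa and rise in the tendon.

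Matrix-degrading proteases included 5 that rose more in the tendon than in the bursa. Of 14 tested, 12 rose in the tendon (median 2.63) and 8 in the bursa (6 with limma voom) (median 1.22), against 26.7% and 22.7% of all features. The interaction was called for 5, all lower (against 6.98% of all features). *Mmp3*, stromelysin, which cleaves proteoglycans and activates other proteases, had 10.3, 19.9, 9.13, 5.54 and 6.24 CPM in control tendons and 35.4 to 356 (median 137) at day 3. In bursae it had 0.0842, 0, 0.470, 2.12 and 1.196 CPM in controls and 0.703 to 2.02 (median 1.42) at day 3, so the bursa groups overlapped and every bursa lay below every tendon. The gap at day 3 was -6.89 ± 0.64 and the interaction -3.31 ± 0.87 (adjusted p = 0.0122), a call that was lost without control bursa 4, with the muscle covariate (adjusted p = 0.0613), with limma voom (0.628) and with the replicate block (0.0667).

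*Mmp19* rose in both tissues, by 1.85 ± 0.20 in the bursa and 3.70 ± 0.22 in the tendon. Its levels were 37.1, 40.9, 35.1, 29.9 and 30.5 CPM in control bursae and 8.34, 8.85, 13.4, 6.24 and 4.54 in control tendons, and 79.5 to 139 (median 133) and 89.2 to 137 (median 104) at day 3, when the tissues overlapped (interaction -1.85 ± 0.28, adjusted p = 1.95e-04). *Adamts12* rose in the tendon (1.69 ± 0.16) with 0.30 ± 0.15 in the bursa (adjusted p = 0.103; interaction -1.38 ± 0.21, adjusted p = 2.23e-04). *Adamts4*, an aggrecanase (-2.199 ± 0.70, adjusted p = 0.0348), and *Adamts1* were the other 2 called. The *Adamts4* call was lost with the muscle covariate (adjusted p = 0.111) and kept in 14 of 22 fits that left out 1 library. Without control bursa 4, or with the muscle level as a covariate, 3 proteases were called, and without control bursae 1 and 2, with DESeq2 or in the fit of all 46 libraries there were 8.

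The inhibitors went separate ways. *Slpi*, a leukocyte protease inhibitor, rose from 0, 0.187, 0, 0 and 0.114 CPM in control tendons to 5.40 to 12.6 (median 8.01), and from 2.44, 2.14, 1.13, 1.03 and 2.11 to 11.8 to 29.0 (median 18.3) in bursae, giving an interaction of -3.48 ± 0.70 (adjusted p = 0.00211; not called by limma voom, adjusted p = 0.176). *Timp4*, an inhibitor of metalloproteinases, fell in both, from 70.4, 114, 71.4, 57.7 and 71.6 to 11.2 to 40.0 (median 20.9) CPM in bursae and from 21.7, 31.0, 38.0, 35.1 and 40.3 to 1.26 to 3.66 (median 2.25) in tendons. Its fall was deeper in the tendon (interaction 2.01 ± 0.42, adjusted p = 0.00285). With bursa-removed tendons in place of the intact ones the *Timp4* interaction was 1.15 (adjusted p = 0.19).

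*Postn*, periostin, a matricellular protein of healing fibroblasts, was the single collagen and scar matrix gene with a called interaction. It had 310.0, 380.3, 1146, 1045 and 1146 CPM in control bursae and 2442 to 6497 (median 3699) at day 3, against 136, 118, 391, 197 and 177 and 4419 to 7272 (median 6274) in tendons. Both tissues rose without overlap, by 2.29 ± 0.38 and 4.92 ± 0.43, and the interaction was -2.63 ± 0.51 (adjusted p = 0.00147). The gap of 1.98 ± 0.38 in controls (adjusted p = 2.52e-04) was -0.64 ± 0.34 at day 3 (adjusted p = 0.165).

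Of 8 haem and iron genes 2 had a lower interaction, against 6.98% of all features, and 4 did in the fit of all 46 libraries and with bursa-removed tendons. *Hmox1*, haem oxygenase, which breaks down haem, had 10.1, 12.7, 16.0, 14.2 and 15.8 CPM in control bursae and 8.57, 7.35, 13.5, 7.38 and 5.22 in control tendons, and 227 to 563 (median 360.4) and 398 to 926 (median 669) at day 3. Its rise was 4.73 ± 0.32 in the bursa and 6.35 ± 0.34 in the tendon (interaction -1.62 ± 0.38, adjusted p = 0.00566). *Ftl1*, the ferritin light chain, was called beside it (interaction -1.05 ± 0.19, adjusted p = 8.09e-04). Of 6 bone forming cell and osteoclast genes tested, 1 had a higher interaction and 2 a lower one, against 9.59% and 6.98% of all features. *Acp5*, the acid phosphatase of osteoclasts and macrophages, rose from 4.98, 7.41, 7.76, 4.31 and 5.56 to 19.1 to 33.7 (median 24.8) CPM in tendons and overlapped its controls in bursae, at 26.1, 20.7, 22.2, 16.7 and 19.5 and 16.7 to 22.7 (median 19.5) (interaction -2.18 ± 0.23, adjusted p = 7.78e-06). *Dmp1*, a matrix protein of osteocytes, rose in the tendon (1.47 ± 0.33) and fell in the bursa (-1.002 ± 0.31), with an interaction of -2.48 ± 0.45 (adjusted p = 9.83e-04). *Alpl*, the phosphatase of mineralising cells, fell in both tissues and less in the bursa (interaction 1.41 ± 0.44, adjusted p = 0.0322), a call kept in 12 of 22 fits that left out 1 library. With bursa-removed tendons it was 0.51 (adjusted p = 0.499), and the bursa fall was not called without control bursae 1 and 2 (-0.58, adjusted p = 0.129).

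Among 9 genes of lipid-handling macrophages that express *Spp1* and *Trem2*, 2 interactions were higher and 2 lower, against 9.59% and 6.98% of all features. *Lipa*, lysosomal acid lipase, rose more in the bursa (1.41 ± 0.12 against 0.77 ± 0.12; interaction 0.64 ± 0.16, adjusted p = 0.00985). *Fabp5*, a fatty acid carrier, rose more in the tendon (1.80 ± 0.14 against 0.75 ± 0.13; interaction -1.05 ± 0.19, adjusted p = 8.51e-04). *Arg1*, arginase, was also lower (-2.64 ± 0.84, adjusted p = 0.0352), a call kept in 13 of 22 fits that left out 1 library and lost with limma voom, the muscle covariate and the replicate block (adjusted p = 0.568, 0.114 and 0.0526). *Spp1*, osteopontin, had 1.09, 1.604, 0.988, 29.9 and 2.31 CPM in control bursae and 25.99 to 195 (median 75.1) at day 3, against 77.9, 458, 212, 507 and 664 and 209.7 to 744 (median 432) in tendons. Its interaction of 3.29 ± 1.11 (adjusted p = 0.046) was kept in 5 of those 22 fits, was 5.54 without control bursa 4, and was lost with limma voom, no count filter, the muscle covariate, bursa-removed tendons and without control bursae 1 and 2 (adjusted p = 0.0549 to 0.0899). *Lyve1*, a gene of resident macrophages and lymphatic vessels, gave 1.41 ± 0.46 (adjusted p = 0.0389), kept in 8 of them and lost with no count filter, the scaling without mitochondrial and muscle genes, the replicate block and without control bursae 1 and 2 (adjusted p = 0.051 to 0.135). It was the 1 call among 6 resident type macrophage genes tested. Without control bursae 1 and 2 none of that list was higher and 2 were lower.

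Globin and *Alas2* transcripts fell in the bursa and rose in the tendon. Of 8 red blood cell genes tested, 6 fell in the bursa, against 23.2% of all features. In the tendon 4 rose and 1 fell, against 26.7% and 31.5% of all features. A lower interaction was called for 5, against 6.98% of all features. Each alternative fit also called 5. *Hba-a1*, an alpha globin gene, had 542, 571, 731, 846 and 1114 CPM in control bursae and 115 to 306 (median 189) at day 3, with no overlap. In tendons it had 13.9, 16.5, 23.5, 15.2 and 10.1 CPM in controls and 32.3 to 70.8 (median 54.8) at day 3, again with no overlap and in the other direction. The bursa change was -1.999 ± 0.27, the tendon change 1.75 ± 0.28 and the interaction -3.75 ± 0.39 (adjusted p = 7.53e-06). The bursa still held more at day 3 (gap 1.83 ± 0.26, adjusted p = 2.87e-05).

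*Hbb*, beta globin, and *Hba-a2*, the second alpha globin gene, gave interactions of -3.98 ± 0.45 and -3.57 ± 0.40 (adjusted p = 1.18e-05 and 1.18e-05). *Hba-a1* and *Hba-a2* are near-identical copies whose reads the counting could split either way. The split between them is therefore uncertain, and their calls are not separate results. *Alas2*, which makes the first haem precursor in red cell precursors, fell from 7.74, 10.5, 12.9, 14.3 and 18.5 to 1.26 to 5.57 (median 3.02) CPM in bursae. It rose from 0.230, 0.125, 0.152, 0.0879 and 0 to 0.619 to 1.34 (median 0.826) in tendons (interaction -4.81 ± 0.59, adjusted p = 3.01e-05).

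Upstream sequences of *Alas2* and *Hba-a1* are shown because the erythroid factor GATA1 is known to act on both kinds of gene. They end at the base before the RefSeq start on GRCr8, with GATAA, on either strand, in capitals.
Alas2: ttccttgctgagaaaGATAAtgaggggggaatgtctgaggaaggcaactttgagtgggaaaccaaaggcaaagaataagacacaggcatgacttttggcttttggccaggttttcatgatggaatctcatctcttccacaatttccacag
Hba-a1: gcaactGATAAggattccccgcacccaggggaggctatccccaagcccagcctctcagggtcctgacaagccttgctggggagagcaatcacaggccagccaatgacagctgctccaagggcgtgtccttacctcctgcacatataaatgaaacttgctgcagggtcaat
They lie at chrX:22895300-22895449 (plus strand) and chr10:15842581-15842750 (minus strand), and GATAA was found in the 250 upstream bases of 23.5% of promoters. It stood in 3 of the 7 red blood cell genes of the list that have a RefSeq entry (*Alas2*, *Hba-a1* and *Hba-a2*) and was not found in those of *Hbb* and 3 others, so both genes shown are among those with a match.

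*Cebpa*, *Pde3b* and *Angptl8*, which fat cells express among others, fell in the bursa and rose in the tendon, while 10 fat cell marker genes had no called interaction. Of 10 white adipocyte genes, 9 fell in the bursa (median -1.75) and 9 in the tendon (median -1.85), and no interaction was called by edgeR, DESeq2 or limma voom (1 at an unadjusted p under 0.05). In the fit without control bursae 1 and 2, 5 of the 10 fell in the bursa. *Cebpa*, a transcription factor of adipocytes and myeloid cells, fell in bursae from 418, 572, 454, 344 and 423 to 103 to 219 (median 144) CPM and rose in tendons from 11.7, 19.3, 18.8, 10.2 and 8.63 to 26.4 to 46.7 (median 39.5). No groups overlapped, and the interaction was -2.98 ± 0.31 (adjusted p = 7.78e-06). *Pde3b*, a cyclic nucleotide phosphodiesterase of fat and other cells, changed by -1.49 ± 0.24 in the bursa and by 1.46 ± 0.25 in the tendon (interaction -2.95 ± 0.35, adjusted p = 2.07e-05). *Angptl8*, a regulator of lipoprotein lipase made by liver and fat, fell from 66.8, 54.6, 33.1, 33.8 and 42.7 to 4.27 to 15.0 (median 11.2) CPM in bursae. In tendons it was at 0.0765, 0, 0.913, 0 and 0 in controls and 0.297 to 2.55 (median 1.09) at day 3 (interaction -4.63 ± 0.89, adjusted p = 0.00148). Without control tendon 3, which held the 0.913 CPM, the *Angptl8* interaction was -7.60, and limma voom did not call its tendon rise (adjusted p = 0.0954).

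*Clu*, *Cilp*, *Ecrg4* and *Scara3* fell in the tendon, and *Chi3l1* rose in the bursa while its tendon groups overlapped. *Clu*, clusterin, a secreted chaperone, had 1697, 3874, 3017, 2039 and 2370.0 CPM in control tendons and 193 to 341 (median 249) at day 3. In bursae it had 290.1, 365, 838, 1022 and 863 in controls and 1033 to 1588 (median 1296) at day 3, with each day 3 bursa above each control bursa. The changes were 0.96 ± 0.29 in the bursa (adjusted p = 0.00937) and -3.31 ± 0.30 in the tendon, the interaction was 4.27 ± 0.41 (adjusted p = 4.95e-06), and the gap went from -1.94 in controls to 2.33 at day 3. Without control bursae 1 and 2, which held its lowest bursa values, the bursa change of *Clu* was 0.54 (adjusted p = 0.0639) and the interaction was still called.

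*Cilp*, a cartilage and tendon matrix protein that binds TGF-beta, fell from 395, 611, 338, 391 and 472 to 37.8 to 127 (median 69.8) CPM in tendons and had 39.3, 18.3, 79.5, 143 and 95.7 and 109.6 to 184 (median 126) in bursae (interaction 3.38 ± 0.55, adjusted p = 3.60e-04). *Ecrg4*, a secreted peptide precursor, fell in tendons from 91.5, 336, 188, 340.0 and 412 to 13.1 to 26.6 (median 16.5). In bursae its ranges overlapped, at 4.46, 4.01, 10.9, 45.6 and 11.2 in controls and 8.003 to 14.3 (median 10.9) at day 3 (interaction 3.49 ± 0.69, adjusted p = 0.00172). *Chi3l1*, a secreted chitinase-like protein, rose in bursae from 5.05, 5.79, 11.7, 51.9 and 14.9 to 85.8 to 224 (median 131) CPM, while tendon values overlapped at 60.0, 134, 45.3, 28.7 and 45.98 and 23.6 to 59.6 (median 47.5) (interaction 3.50 ± 0.71, adjusted p = 0.00223). *Scara3*, a scavenger receptor, rose in the bursa (1.03 ± 0.36) and fell in the tendon (-1.42 ± 0.35; interaction 2.44 ± 0.50, adjusted p = 0.00242). Its bursa change without control bursae 1 and 2 was 0.51 (adjusted p = 0.142).

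Of 12 IGF and Wnt modulators, 4 rose and 6 fell in the tendon and 4 rose and 5 fell in the bursa. Of all features 26.7% rose and 31.5% fell in the tendon, and 22.7% rose and 23.2% fell in the bursa. Among the 12, 3 interactions were called, 2 higher and 1 lower (9.59% and 6.98% of all features were). Of 11 TGF-beta and activin genes, 5 rose and 4 fell in the tendon and 4 rose and 3 fell in the bursa. Among these 11, 3 interactions were higher, against 9.59% of all features. *Dkk2*, a secreted Wnt modulator, had 10.8, 9.09, 15.0, 23.8 and 18.5 CPM in control bursae, 11.03 to 17.1 (median 12.1) in day 3 bursae and 15.4, 10.2, 11.6, 18.4 and 13.2 in control tendons, which all overlapped. In day 3 tendons it had 0.955 to 2.48 (median 1.73), below every other library. Its interaction was 2.75 ± 0.36 (adjusted p = 5.37e-05), and a gap of 0.17 ± 0.26 in controls became 2.93 ± 0.26 at day 3. *Dkk3* fell in the tendon (-1.84 ± 0.52) and gave 0.82 ± 0.52 in the bursa (adjusted p = 0.208; interaction 2.66 ± 0.73, adjusted p = 0.0169). Without control bursa 4 the *Dkk3* interaction was 3.997. *Igfbp3*, an IGF-binding protein, fell in the bursa (-0.76 ± 0.21) and had a lower interaction (-1.22 ± 0.30, adjusted p = 0.00869). With bursa-removed tendons the *Igfbp3* interaction was -1.93.

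*Bmp4*, a BMP ligand, fell from 36.1, 37.8, 27.6, 26.5 and 20.8 to 4.58 to 5.77 (median 5.14) CPM in tendons and less in bursae (a fall lost without control bursa 5), from 6.82, 4.72, 11.99, 14.9 and 16.1 to 4.60 to 9.42 (median 5.44) (interaction 1.73 ± 0.37, adjusted p = 0.00305). The *Bmp4* gap at day 3 did not pass the test (0.30 ± 0.25, adjusted p = 0.412). *Bmp2* (0.87 ± 0.26, adjusted p = 0.0238) and the activin antagonist *Fst* (1.41 ± 0.43, adjusted p = 0.0294) were also higher. The *Bmp2* and *Fst* calls were lost with bursa-removed tendons (adjusted p = 0.0881 and 0.261), that of *Bmp2* also without control tendon 2 and that of *Fst* with limma voom (0.0822). The *Fst* call was also lost when control bursa 2 or 3, day 3 bursa 2, or control tendon 3, 4 or 5 was left out alone (adjusted p = 0.0507 to 0.0658). The calls of both genes were lost without control bursae 1 and 2 (adjusted p = 0.0565 and 0.0695), when 1 gene of the list was higher and 3 lower. In the fit of all 46 libraries 3 higher and 3 lower were called.

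**Figure D5:**
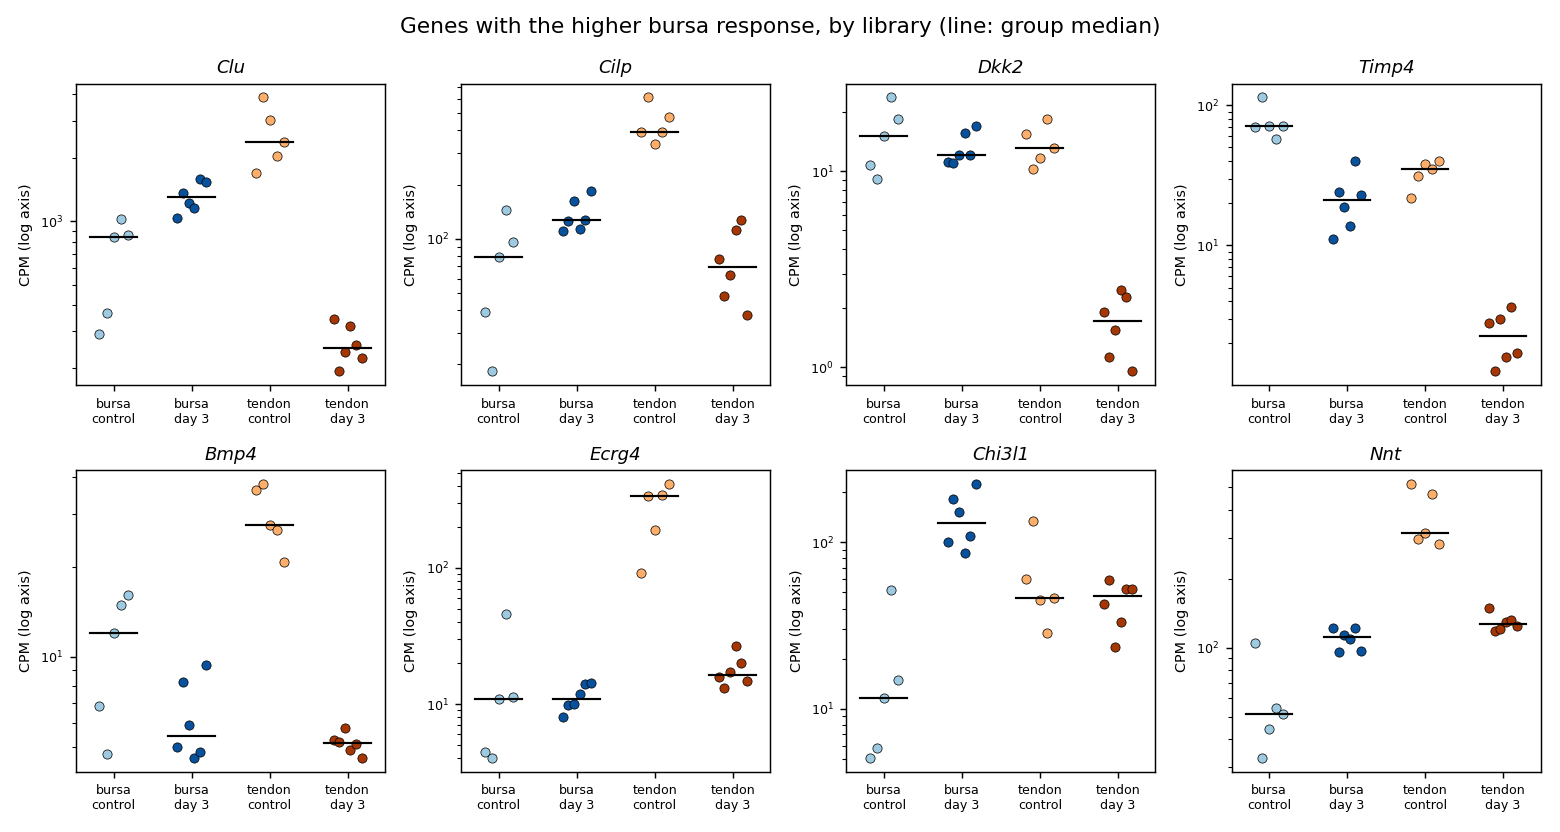
CPM of 8 genes with a higher interaction is plotted on log axes for each library in the 4 groups, with the line at the group median. *Clu*, *Cilp*, *Dkk2*, *Timp4*, *Bmp4*, *Ecrg4* and *Nnt* fall in the tendon, *Chi3l1* rises in the bursa, and *Clu* and *Nnt* also rise in the bursa, the rise of *Clu* not being called without control bursae 1 and 2.

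Tendon identity genes mostly had interactions over 0 that did not pass the test. Of 12 mature tendon genes, 8 fell in the tendon, against 31.5% of all features, and 3 in the bursa, near the 23.2% of all features. In the bursa 2 rose and in the tendon 1, against 22.7% and 26.7% of all features. *Cilp* alone had a called interaction, which was higher, as 9.59% of all features were. In the bursa 4 rose and none fell without control bursa 4, and 1 rose and 5 fell without control bursae 1 and 2. In all, 11 of 12 interactions were above 0 (median 1.26, against 0.04 over all features). *Scx*, the transcription factor of tendon cells, had 5.56, 0.446, 1.03, 3.56 and 1.28 CPM in control bursae and 0.978 to 11.4 (median 6.27) at day 3, and 31.5, 29.9, 18.02, 32.2 and 30.7 and 12.8 to 35.0 (median 24.1) in tendons. It rose in the bursa (1.48 ± 0.56, adjusted p = 0.0356; kept in 16 of 22 fits that left out 1 library and not called by limma voom, adjusted p = 0.251), and its interaction was 1.69 ± 0.74 (adjusted p = 0.131). *Mkx*, another tendon transcription factor, fell in the tendon (-2.27 ± 0.40) and gave an interaction of 1.69 ± 0.62 (adjusted p = 0.0655). The *Mkx* interaction was called with DESeq2 (adjusted p = 0.0163), without control bursae 1 and 2 (0.039) and without control bursa 4 (0.0438). That of *Scx* was called without control bursa 1 (2.17, adjusted p = 0.0388). The interaction of *Tnmd*, a membrane protein of mature tendon cells, was 0.65 ± 0.78 (adjusted p = 0.631). Without control bursa 4, 7 of the 12 were called, all higher, with a median of 2.14, and 3 were called with DESeq2 or with the muscle level as a covariate. Of 4 cartilage genes none was called by edgeR, DESeq2 or limma voom, 0 passed at an unadjusted p under 0.05, and without that library 2 were, both higher. *Prg4*, lubricin, the lubricant of synovial surfaces, had 39.9, 6.50, 89.1, 647 and 148 CPM in control bursae and 172 to 245 (median 197) at day 3, with an interaction of -0.36 ± 0.89 (adjusted p = 0.834).

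Embryonic muscle genes had some of the highest fitted interactions, and a few day 3 bursae carried them. *Myh3*, the embryonic myosin heavy chain, had 2.78, 0.267, 0.470, 0.671 and 0.997 CPM in control bursae. The 6 day 3 bursae had 445, 0.293, 0.146, 11.01, 150.4 and 0, so replicates 1 and 5 were the high ones. *Actc1*, cardiac and fetal muscle actin, and *Myl4*, an embryonic light chain, were high in the same 2 bursae, at 519 and 186 CPM and at 209 and 62.2 CPM. Interactions were 8.20 ± 1.99 for *Myh3*, 7.81 ± 2.31 for *Actc1* and 6.72 ± 2.06 for *Myl4* (adjusted p = 0.00743, 0.0246 and 0.0299). None of the 3 was called with the muscle level as a covariate, with the replicate block or by limma voom with group weights, and their bursa rises were not called by limma voom either. Without control bursae 1 and 2, or with bursa-removed tendons, *Actc1* and *Myl4* were not called (adjusted p = 0.0523 and 0.0663 in the first, 0.0617 and 0.0863 in the second). The mean log2 CPM of 9 adult muscle genes was 6.92 and 8.25 in these 2 bursae and 0.46 to 6.30 in the other 4. With the block the *Myh3* interaction was 4.51 (adjusted p = 0.195), and with the covariate its adjusted p was 0.242.

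Adult muscle genes fell in the tendon. All 9 skeletal muscle genes fell there (median -3.45; 4 with limma voom) and 1 in the bursa (median -1.25). No interaction was called by edgeR (0 at an unadjusted p under 0.05, 0 by DESeq2 and 0 by limma voom), and 7 of 9 were called, all higher, without control bursa 1, which held 7199 CPM of the actin gene *Acta1* against 188 to 774 in the other 4. Called muscle genes outside the list included *Itgb1bp2*, an integrin-binding muscle protein (5.90 ± 1.34, adjusted p = 0.00471), *Mstn*, myostatin, which limits muscle growth (4.45 ± 1.18, adjusted p = 0.0134), *Srl*, sarcalumenin (3.51 ± 0.996, adjusted p = 0.0197), and *Tnnc1*, slow troponin C (4.28 ± 1.38, adjusted p = 0.0381, kept in 9 of 22 fits that left out 1 library). The call was lost for *Mstn* with limma voom (adjusted p = 0.059), and with the covariate its interaction was 2.68. For *Srl* it was lost with bursa-removed tendons (2.63, adjusted p = 0.122), and for *Tnnc1* with limma voom, no count filter, the block, the covariate and bursa-removed tendons. *Flnc*, muscle filamin, and *Cacna2d1*, a calcium channel subunit, rose in the bursa (1.36 ± 0.55 and 0.94 ± 0.31) and fell in the tendon (-1.56 ± 0.53 and -1.27 ± 0.30). The bursa rise of *Flnc* was kept in 5 of 22 fits that left out 1 library and that of *Cacna2d1* in 21 (lost without control bursa 2), and neither tendon fall was called with the covariate, which is a muscle level itself. *Nnt*, the mitochondrial transhydrogenase, rose in the bursa and fell in the tendon, from 105, 33.0, 44.1, 54.6 and 51.3 to 95.8 to 122 (median 111) CPM in bursae and from 517, 297, 315, 469.6 and 283 to 118 to 149 (median 126) in tendons (interaction 2.48 ± 0.31, adjusted p = 3.78e-05).

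*Pitx1*, a homeobox factor known from the hindlimb, had the highest called interaction of the named genes with a mean of at least 10 CPM in a group (9.61 ± 1.95, adjusted p = 0.00315) and was at 0 counts in all 5 control bursae, so its fitted size depends on the prior count. Limma voom with group weights did not call it (adjusted p = 0.18). The 6 day 3 bursae had 0.0445, 0, 1.02, 0.986, 4.60 and 0 CPM. Against a floor of 3 counts over the control group their mean of 1.11 CPM was at least 33.4-fold higher. Most of that mean came from day 3 bursa 5, and without it the mean of 0.411 CPM was at least 12.4-fold higher. In tendons it fell (not called with bursa-removed tendons or the covariate) from 27.6, 22.7, 11.1, 19.9 and 18.4 to 1.97 to 5.64 (median 4.35) CPM.

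Of 12 glycolysis and hypoxia genes, 4 had a lower and 1 a higher interaction (against 6.98% and 9.59% of all features), and without control bursae 1 and 2, 3 were lower and 3 higher. *Pfkl*, a phosphofructokinase, had 199, 139, 76.8, 65.8 and 62.4 CPM in control bursae and 51.4 to 84.3 (median 66.6) at day 3, and 35.6, 44.9, 40.2, 30.9 and 32.8 and 67.3 to 80.4 (median 74.1) in tendons (interaction -1.67 ± 0.33, adjusted p = 0.00171), a call that was kept in each alternative run. It was -1.04 without control bursae 1 and 2, and the *Pfkl* fall in the bursa was no longer called (-0.0042, adjusted p = 0.987). *Eno1*, enolase, had 1356, 949, 231, 243 and 206 CPM in control bursae, and its interaction of -1.80 ± 0.53 (adjusted p = 0.0229) was lost without control bursae 1 and 2 (-0.44, adjusted p = 0.0825) and with the replicate block (0.0677), as was that of *Pgam1*, also lost without control bursa 2 (-1.72 ± 0.52, adjusted p = 0.0263). *Slc16a3*, a lactate exporter, was higher (1.57 ± 0.50, adjusted p = 0.0359), and its call was kept in 11 of 22 fits that left out 1 library and lost with no count filter and with the muscle covariate (adjusted p = 0.0501 and 0.0538). In the absence of control bursae 1 and 2, 7 genes of the list rose and 1 fell in the bursa, where 1 rose and 3 fell with them.

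Of 15 mitochondrial respiration genes, which encode parts of the chain that makes ATP, 14 fell in the tendon (31.5% of all features did). All 15 fell in the bursa (23.2% of all features did), but that count rested on control bursae 1 and 2. The list summed to 19783 and 15098 CPM in those 2, to 3718, 2935 and 3300.0 in the other 3 and to 2024 to 4493 in day 3 bursae, which overlapped those 3. Without both, none of the 15 fell in the bursa and 1 rose, 9 fell without control bursa 1 alone, and limma voom called 10 falls. No interaction was called by edgeR, DESeq2 or limma voom, and 0 passed at an unadjusted p under 0.05. Without control bursae 1 and 2, 14 of the 15 interactions were called, all higher, while all 15 fell in the tendon.

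*P4ha3*, a collagen prolyl hydroxylase, had 0.842, 0.178, 1.88, 4.70 and 1.36 CPM in control bursae and 24.9 to 69.6 (median 55.0) at day 3, against 27.2, 26.1, 14.9, 11.6 and 13.9 and 80.4 to 122 (median 101) in tendons. It rose in both without overlap, more in the bursa (4.79 ± 0.47 against 2.43 ± 0.40; interaction 2.36 ± 0.56, adjusted p = 0.00656; not called by limma voom, adjusted p = 0.0565). Among 19 genes of secretion through the endoplasmic reticulum 14 rose in each tissue, and 3 interactions were called, 1 higher and 2 lower, a share near the 16.6% of all features. Without control bursae 1 and 2, 3 of the 19 were higher and 7 lower.

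None of 10 endothelial and 11 Schwann cell genes had an interaction called by edgeR or limma voom, while 1 of each list was called by DESeq2 and 1 of each passed at an unadjusted p under 0.05. Of 11 smooth muscle and pericyte genes edgeR called 2, 1 higher and 1 lower, a share near that of all features. *Mcam*, an adhesion molecule of pericytes and endothelium, fell in the bursa (-0.86 ± 0.24) and rose in the tendon (0.96 ± 0.25; interaction -1.82 ± 0.35, adjusted p = 0.00132), the tendon rise not being called with the muscle covariate. *Rgs5*, a pericyte marker, had 178, 199, 222, 188 and 221 CPM in control bursae and 157 to 225 (median 192) at day 3, which overlapped. It fell from 209, 181, 331, 281 and 268 to 93.7 to 161 (median 131) in tendons (interaction 0.89 ± 0.22, adjusted p = 0.00754; 0.51 with bursa-removed tendons, adjusted p = 0.149).

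Whether these differences were particular to day 3 was tested by setting the bursa-over-tendon gap at day 3 against that at day 14, in a fit of all 46 libraries in which the controls cancel. Of 17238 features 2912 were called (16.9%), 1576 higher at day 3 (9.14%) and 1336 lower (7.75%). All 4 class II genes had a lower gap at day 3 than at day 14 (median -0.94). *RT1-Da* had 329.6 to 546 (median 405) CPM in day 14 bursae and 171 to 312 (median 216) in day 14 tendons, so the tissues overlapped at day 3 and lay apart at day 14 (difference of gaps -0.98 ± 0.32, adjusted p = 0.0308). *Cebpa* (-1.86 ± 0.25, adjusted p = 3.61e-06) and *Pde3b* (-1.88 ± 0.27, adjusted p = 8.42e-06) also had a smaller bursa-over-tendon level at day 3.

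*Clu* went the other way: its bursa-over-tendon level was 1.96 ± 0.44 higher at day 3 than at day 14 (adjusted p = 0.00174). It had 667 to 1274 (median 989) CPM in day 14 bursae and 388 to 1275 (median 683) in day 14 tendons. For *Postn* the difference was 1.97 ± 0.40 (adjusted p = 6.18e-04), with 3074 to 6326 (median 3560.5) CPM in day 14 bursae and 20132 to 30383 (median 25663) in day 14 tendons, and for *P4ha3* it was 2.60 ± 0.55 (adjusted p = 9.54e-04). Of the 15 collagen and scar matrix genes 11 were called, all higher at day 3. The difference between days did not pass the test for *Ptgs2* (0.24 ± 0.73, adjusted p = 0.865), *Dkk2* (-0.14 ± 0.41, adjusted p = 0.862), *Acp5* (-0.02 ± 0.20, adjusted p = 0.972) and *Cilp* (0.38 ± 0.42, adjusted p = 0.593).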

How the data were processed

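Poly-A RNA of bursa and supraspinatus tendon was sequenced in bulk. The submitters' processing notes name bcl2fastq 2.19, kallisto 0.44.0 and DESeq2 (no version), and no genome build was found in the labels or headers. The deposited estimated counts are per transcript and unnormalised. The authors' deposited gene tables give a mean normalized signal (counts divided by size factors) and a log2 ratio per symbol, and were used to name transcripts only.

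Transcript identifiers in the count table are not paired with symbols, so a transcript, or a sum of 2, took a symbol when its counts, scaled by library weights fitted to those tables, gave the deposited means of all 11 within a set tolerance and no other candidate came close. In all 13223 of 23747 symbols and 15475 of 31715 transcripts were paired, and these transcripts held 91.0% of counts. The check against decoy means matched 1 symbol. Unnamed transcripts stayed in the fits as features.

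Transcripts of 1 symbol were added up, values were rounded to whole counts, and 16496 features passed filterByExpr. The fit used edgeR 4.0.16 in R 4.3.3 (TMM scaling, robust quasi-likelihood test, 1 mean per group over 22 libraries, Benjamini-Hochberg adjustment over all features, called at adjusted p under 0.05). The test against day 14 used all 46 libraries, and only day 14 bursae were left out of it in turn. On simulated data for the interaction, 69 of 100 genes changed 2-fold and 91 of 100 changed 4-fold were called, and 27 of 2000 unchanged ones. Alternatives were DESeq2 1.42.0 and its size factors, limma 3.58.1 voom with weights per group, scaling without mitochondrial and muscle genes, no count filter, all 46 libraries, a replicate block, a muscle covariate, bursa-removed tendons, leaving out each library, and leaving out control bursae 1 and 2.

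Members, gene lists and tests were chosen with earlier results of these data known, so the lists are not independent evidence. Genes were named by a rule among those with a mean of at least 10 CPM in a group: the 10 highest and 10 lowest called interactions, the same among calls kept in each fit that left out 1 library and with the muscle covariate, up to 8 called in opposite directions each way, 8 shared responses with an interval within 0.5 of 0, 10 genes chosen for their role, and up to 4 called members of each of 33 lists. The rule gave 111 genes, of which 83 are described, and *Adamts1* was named outside it after its call was seen. The 5 promoter sequences shown come from RefSeq on GRCr8.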

Additional observations from a re-analysis of the deposited data

Results flagged for a closer look

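Of 332 groups of 5 or 6 libraries of the genes described, 45 held a highest or lowest library that stood far from the others (Dixon's test at the 95% level), where chance alone flags about 1 in 20 groups. Of these, 7 were in control bursa 1, 6 in control bursa 4, 3 in control bursa 2, and 5 each in day 3 bursae 1 and 5, day 3 tendon 1 and control tendon 3.

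Control bursa 1 was high in muscle genes, with 7199 CPM of *Acta1*, 234 of *Srl*, 198 of *Flnc*, 52.5 of *Cacna2d1*, 29.1 of *Tnnc1*, 8.59 of *Itgb1bp2* and 4.12 of *Mstn*. Day 3 bursa 1 was high in *Actc1* (519 CPM), *Myh3* (445), *Myl4* (209), *Itgb1bp2* (42.9) and *Spp1* (195). Day 3 tendon 1 was high in *Myh3* (145 CPM), *Tnnc1* (72.7), *Myl4* (51.6), *Actc1* (32.6) and *Itgb1bp2* (7.07). In day 3 bursa 5, *Pitx1* (4.60 CPM) and *Mstn* (11.5) were high, and *Ccl2* (10.9), *Adamts4* (24.1) and *Mmp19* (79.5) were low.

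Control bursa 4 was high in *Col2a1* (1138 CPM), *Prg4* (647), *Dkk3* (146), *Chi3l1* (51.9), *Ecrg4* (45.6) and *Spp1* (29.9). *Col2a1* was also high in control tendon 2 (466 CPM) and day 3 tendon 4 (14.7). Control bursa 2 was high in *Timp4* (114 CPM), *Fabp5* (55.4) and *Tyms* (16.2). Control tendon 3 was high in *Postn* (391 CPM), *Soat1* (9.81), *Angptl8* (0.913) and *S100a8* (0.0761, from 1 count) and low in *Scx* (18.02).

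Other high values were those of *RT1-Da* in day 3 bursa 6 (485 CPM) and day 3 tendon 6 (525), of *Ptgs2* (17.3) and *Ftl1* (1609) in day 3 bursa 4, and of *Gnpda1* in day 3 bursa 3 (73.5). In control tendon 1 they were those of *Actc1* (6.81 CPM) and *Cd8b* (0.0765, from 1 count).

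The response differed between the tissues, by the test of the difference itself, for 2734 features, and the gap between the tissues differed between day 3 and day 14 for 2912. Genes called in opposite directions in the bursa and the tendon with a called interaction, among the genes described, were *Pitx1* (9.61), *Clu* (4.27), *Flnc* (2.91), *Nnt* (2.48), *Scara3* (2.44) and *Cacna2d1* (2.20), which rose in the bursa. Those that rose in the tendon were *Cxcl1* (-3.10), *Dmp1* (-2.48), *Mcam* (-1.82), *Pfkl* (-1.67), *Alas2* (-4.81), *Angptl8* (-4.63), *Hbb* (-3.98), *Hba-a1* (-3.75), *Hba-a2* (-3.57), *Cebpa* (-2.98) and *Pde3b* (-2.95). The bursa calls of *Clu*, *Scara3* and *Pfkl* were lost without control bursae 1 and 2, and with limma voom those of *Pitx1* and *Pfkl* in the bursa and of *Angptl8* and *Cxcl1* in the tendon. That of *Flnc* in the bursa was lost in most fits that left out 1 library.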

How the results depend on the processing

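The count of 2734 called interactions was 4138 with all 46 libraries in 1 fit and 4883 without control bursae 1 and 2, and it lay between 2209 and 3502 in the other settings. Fits that left out 1 library gave 2200 to 3549 (highest without control bursa 1). In them the counts for the bursa response (6830 to 7673), the tendon response (8959 to 10043) and the gaps in controls (7094 to 7947) and at day 3 (3915 to 5297) stayed within 1.5 times. For the test against day 14 only day 14 bursae were left out, 1 at a time, and the count (2286 to 2934) also stayed within 1.5 times. Leaving out its other libraries was not tested. With the replicate number as a block there were 2447 interactions, and gaps numbered 7328 in controls and 4399 at day 3. Same-numbered libraries deviated together at day 3 (correlations of 0.146 to 0.300, with 5 of 6 bursae closest to the tendon of their number) but not in controls (-0.201 to 0.293). For the gap at day 3 the numbers thus pair the groups, and the block there kept the side of the threshold of each day 3 gap given for a gene; for the interaction, which uses the controls, they were not taken as pairs. With the block, changes within 1 tissue could not be fitted.

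Of 68 genes described with a called interaction, 39 kept the call in every alternative in which they were tested, and none changed sign. *Cxcl1* passed the count filter in only 19 of the 22 fits that left out 1 library. Calls were lost for 19 genes with limma voom and group weights, 11 with the block, 10 with bursa-removed tendons, 9 with the muscle level as a covariate, 8 without control bursae 1 and 2, 4 with no filter on low counts, 1 with all 46 libraries and 1 with the scaling without mitochondrial and muscle genes. A call was gained by 3 genes without control bursae 1 and 2 and by 1 with DESeq2. Values that changed sign belonged to genes with no call in the main fit. For *Col3a1* they were 0.56 with limma voom, 0.38 with the block, 0.30 with the covariate and 0.0181 with bursa-removed tendons. For *Prg4* they were 1.04, 0.90 and 0.75 in the first 3 of these, and for *Col2a1* 4.17 with limma voom and 4.31 with the block. With the covariate *Ifi30* gave 0.0329 and *Sat1* 0.0471. *Gnpda1* gave -0.0372 without control bursae 1 and 2. *Mki67* gave -0.33 without them, -0.0502 with all 46 libraries and -0.0232 with the scaling above. With 1 library left out the values ran from -0.15 to 0.0614 for *Ifi30*, -0.11 to 0.0627 for *Sat1*, -0.15 to 0.27 for *Mki67*, -0.47 to 0.18 for *Col3a1*, -0.70 to 1.03 for *Prg4* and -5.96 to 6.39 for *Col2a1*, and for the last 3 the highest value was that without control bursa 4. The cause was not tested. Counts were estimates per transcript, and genes with few counts in a control group had the least depth.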

Other observations

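Mast cell and interferon response genes had no interaction called by edgeR in the main fit, and most of them were higher in bursa than in tendon. All 8 mast cell genes were higher in control bursae than in control tendons (22.4% of all features were) and 6 at day 3 (15.9%), and they summed to 28.9 to 186 CPM in control bursae, 51.7 to 135 in day 3 bursae, 10.3 to 38.6 in control tendons and 21.6 to 41.2 in day 3 tendons. Of these, 3 rose in the tendon and none in the bursa. At an unadjusted p under 0.05, 3 of the 8 had an interaction, and DESeq2 called 1 and limma voom with group weights none. Without control tendon 3, without control bursae 1 and 2, and in the fit of all 46 libraries, 2 were called, both lower. Of 12 interferon response genes, 1 rose in the bursa, and 3 rose and 1 fell in the tendon, with medians of 0.11 in the bursa and 0.14 in the tendon, and 8 of 12 were higher in bursa than in tendon in controls and 9 at day 3. No member of that list passed at an unadjusted p under 0.05, with DESeq2 or with limma voom, while 2 were called, both higher, with the replicate block. The gap in these genes was lower at day 3 than at day 14 for 8 of 12 (7.75% of all features were lower), with a median difference of -2.96.

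Of 11 Schwann cell genes 7 fell and 1 rose in the bursa, and 8 fell in the tendon (medians -0.95 and -1.195). Of all features 23.2% fell in the bursa and 31.5% in the tendon. Of 12 immediate early genes 7 fell and 2 rose in the bursa (3 fell with limma voom or without control bursa 4), and 4 fell and 1 rose in the tendon, near the 31.5% of all features that fell there. White adipocyte genes had no called interaction at day 3 (1 of 10 at an unadjusted p under 0.05, none with DESeq2 or limma voom), and 6 of the 10 had a lower bursa-over-tendon gap at day 3 than at day 14. The same held for 5 of 9 T and NK cell genes.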
